A study of Homo sapiens with 30 samples.

Results

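Box H/ACA small nucleolar RNAs (SNORA genes) and small Cajal body RNAs (SCARNA genes) were taken as every row of the deposited start-region table whose identifier carries a symbol starting with SNORA or SCARNA. There were 91 such rows of 16009 in all, 76 SNORA and 15 SCARNA, under 87 different symbols. Of these, 38 had a mean log2 CPM (CPM is the read count relative to the library's size, after the authors' scaling) of 3 or more over the 12 libraries, and the other 53 had fewer reads. No row was removed for low values, so all 91 were tested.

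Box H/ACA RNAs fold into hairpins joined by a hinge, the H box, and end in an ACA trinucleotide a few bases before the 3' end. In a particle with dyskerin they pair with ribosomal RNA and direct the change of chosen uridines to pseudouridine, and the SNORA73 family is known instead for its part in cutting the ribosomal RNA precursor. Small Cajal body RNAs guide the same kind of modification, or ribose methylation, on spliceosomal small nuclear RNAs, and some of them carry C and D boxes in place of H and ACA boxes. In human cells most of these RNAs are cut out of introns of host genes and so carry no cap of their own, while SCARNA2 is known to be transcribed from its own promoter.

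The libraries came from MEL624, a human melanoma cell line, and were made by m6Am-Exo-Seq. In this assay an exonuclease removes RNA fragments without a cap, and an antibody against N6-methyladenosine pulls down methylated 5' ends, including the cap-next m6Am made by PCIF1. KO IP and KO input libraries came from PCIF1 knockout cells, and control IP and control input libraries from wild-type MEL624 carrying a random sgRNA, with 3 libraries in each of the 4 groups and antibody 4 in every immunoprecipitation (IP). All groups started from poly(A)-selected RNA of cultured cells, a step that selects against short RNAs without a tail. The 3 libraries of a group are described as biological replicates. Whether those of KO cells come from 1 clone is not stated, so that knockout and clone cannot be told apart and p-values measure the spread between these libraries. The other 18 libraries of the series are not analysed here.

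Reads in the table ranged from 1753164 to 2177874 in KO IPs, from 2836120 to 3544669 in KO inputs, from 4035815 to 4625190 in control IPs and from 3232562 to 4094070 in control inputs, so the KO IPs were the shallowest. The start region of PCIF1 itself gave 28.7 to 41.0 CPM in KO IPs and 70.4 to 78.0 CPM in KO inputs, against 23.7 to 30.1 CPM in control IPs and 49.4 to 57.8 CPM in control inputs. It was not reduced in KO libraries, and where the edit lies is not given in the sources used here, so these reads do not check the labels. Of 8 melanocyte markers only MITF was tested here, at a mean log2 CPM of 3.07, and the rest of that list and the keratinocyte, fibroblast, leukocyte and endothelial lists were not analysed.

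The sequences of 10 genes on which the results turn are shown here first, read 5' to 3' on the RNA strand from the hg38 genome at the GENCODE 44 coordinates. Capitals mark the ACA that ends 3 bases before the end and the match to ANANNA nearest the middle, the letters of an H box. The first set are abundant members from introns of ribosomal protein genes: SNORA7A from RPL32 (chr3:12840312-12840450, minus strand), SNORA10 from RPS2 (chr16:1962334-1962466, minus strand), SNORA65 from RPL12 (chr9:127448501-127448630, minus strand) and SNORA70 from RPL10 (chrX:154400281-154400415, plus strand).
SNORA7A: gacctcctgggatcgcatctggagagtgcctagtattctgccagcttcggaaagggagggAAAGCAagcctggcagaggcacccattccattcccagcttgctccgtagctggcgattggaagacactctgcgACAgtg
SNORA10: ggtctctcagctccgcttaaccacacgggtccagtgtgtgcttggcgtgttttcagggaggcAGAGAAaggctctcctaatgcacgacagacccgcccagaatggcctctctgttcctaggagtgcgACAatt
SNORA65: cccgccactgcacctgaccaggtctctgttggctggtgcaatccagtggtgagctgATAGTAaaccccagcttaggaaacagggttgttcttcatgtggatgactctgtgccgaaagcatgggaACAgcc
SNORA70: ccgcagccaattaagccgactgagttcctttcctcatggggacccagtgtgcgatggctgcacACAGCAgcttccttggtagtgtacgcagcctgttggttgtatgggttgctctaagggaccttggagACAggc

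The second set led in KO enrichment or in its difference from control cells, or stood at the low end of enrichment: SNORA30 (chr16:30710537-30710665, plus strand), SNORA25 (chr11:93730513-93730646, minus strand), SNORA73A (chr1:28507366-28507571, plus strand) and SNORA73B (chr1:28508559-28508762, plus strand). SNORA25 held no ACA at the searched place as annotated. SNORA73A and SNORA73B, 206 and 204 bases long, are 93.2% identical, so reads could be split between them.
SNORA30: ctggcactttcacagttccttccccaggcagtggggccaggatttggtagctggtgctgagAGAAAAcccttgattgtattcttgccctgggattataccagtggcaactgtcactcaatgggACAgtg
SNORA25: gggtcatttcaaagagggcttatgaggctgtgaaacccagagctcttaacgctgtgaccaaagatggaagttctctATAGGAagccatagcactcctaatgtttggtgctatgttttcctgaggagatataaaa
SNORA73A: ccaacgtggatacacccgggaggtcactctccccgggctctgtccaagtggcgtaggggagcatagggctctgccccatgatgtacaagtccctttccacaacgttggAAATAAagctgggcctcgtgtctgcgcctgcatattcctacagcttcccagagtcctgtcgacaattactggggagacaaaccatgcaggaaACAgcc
SNORA73B: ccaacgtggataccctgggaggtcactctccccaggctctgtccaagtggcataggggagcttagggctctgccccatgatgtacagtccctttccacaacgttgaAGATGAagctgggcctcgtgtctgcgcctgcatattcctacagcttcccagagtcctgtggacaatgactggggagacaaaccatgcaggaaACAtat

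The third set lay close to the start of a long host gene and differed from the rest below: SNORA78 in SNHG9 (chr16:1965184-1965310, plus strand), with no ANANNA near its middle, and SCARNA17 in SNHG22 (chr18:49814133-49814276, plus strand), with neither match.
SNORA78: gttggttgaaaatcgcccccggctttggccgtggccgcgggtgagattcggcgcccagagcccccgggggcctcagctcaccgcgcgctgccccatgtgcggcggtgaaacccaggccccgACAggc
SCARNA17: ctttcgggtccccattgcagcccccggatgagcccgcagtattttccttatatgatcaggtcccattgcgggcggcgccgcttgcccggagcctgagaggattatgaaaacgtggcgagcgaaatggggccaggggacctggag

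Over all 91 members the ACA was found in 65.9%, against 1.36% of 35116 windows of 134 bases, the members' median length. These windows were taken before RefSeq gene starts and do not stand for the whole genome. ANANNA between 35% and 65% of the length was found in 90.1% of members and 38.6% of windows, so these letters alone are common in such windows. GGAC, a form of the motif at which internal m6A is often found, was in 42.9% of members and 38.7% of windows on the RNA strand.

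By position in the canonical transcript of a host gene on their strand, 80 members lay in an intron, 4 overlapped an exon and 6 lay outside it. SNORA11F had no annotated host. Other transcripts can place exons elsewhere. Of the 10 most abundant members, SNORA7A, SNORA10, SNORA21, SNORA70, SNORA6, SNORA64 and SNORA67 start within some annotated exon of a long gene on their strand. SNORA65, SNORA3B and SNORA31 do not. Whether reads of such exons were counted for the members was not tested. The 90 with a host shared 60 host genes, 18 of which held several members. Ribosomal protein genes held 15 members, other protein-coding genes 49 and non-coding genes 26. Reads could be uncertain for the 24 members with an annotated copy of at least 90% identity, the 13 that overlapped another small RNA gene on their strand and the 14 that overlapped an antisense gene, since whether the counting used strand is not stated.

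The values are of start regions, and a few pairs of rows show how far they depend on the annotated start. SCARNA2 and ENSG00000270066, a long non-coding gene with the same first base, had the same value in all 12 libraries, so the same reads stand in both rows. SNORA17A had the same values as ENSG00000281808, which also begins at the same base. The 2 records of SCARNA4 begin 1 base apart and averaged 2.66 and 0.804 CPM over the 12 libraries, a 3.31-fold difference. The paired records of SNORA16A, 2 bases apart, and of SNORA17B, 5 bases apart, differed 1.06-fold and 1.04-fold in mean CPM. Alike means did not give alike contrasts. The difference of enrichment described below was 2.71 for the SNORA17B record ENSG00000280496, called, and 0.44 for ENSG00000276161, not called. Both had few reads, with a mean log2 CPM of 0.64 and 0.53.

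Together, the members took 1.11% ± 0.0561 of the reads in KO IPs and 0.869% ± 0.0614 in KO inputs, against 0.397% ± 0.0253 in control IPs and 1.0% ± 0.0908 in control inputs (SD, n = 3 each). The share was thus lowest in control IPs, where each library lay below each library of the other groups. The KO IPs ranged from 1.06% to 1.17% and the control IPs from 0.370% to 0.420%, which do not overlap. This pattern is not particular to the members. Box C/D small nucleolar RNAs (SNORD genes) took 1.19% of the reads in control IPs, against 3.59% in KO IPs, 3.43% in KO inputs and 3.53% in control inputs. The 10 members with the highest mean log2 CPM held 85.5% to 89.3% of the members' reads in every library, so the members' share is mainly theirs. At the other end, between 45 and 48 members had under 10 reads in a KO IP, between 22 and 34 in a KO input, between 46 and 51 in a control IP and between 22 and 24 in a control input. In bulk libraries, fewer cells and less RNA per cell cannot be told apart.

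**Figure D1:**
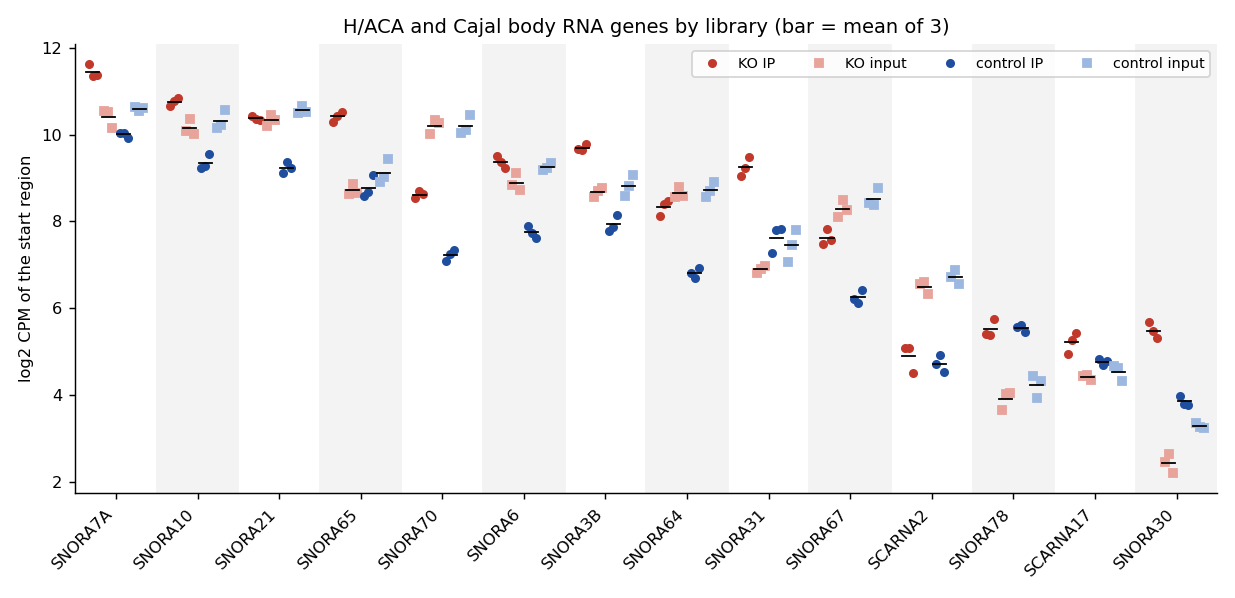
Each point is the log2 CPM of a gene's start region in 1 library (y axis) for the 10 members with the highest mean and for SCARNA2, SNORA78, SCARNA17 and SNORA30 (x axis), with KO IP, KO input, control IP and control input drawn left to right and a bar at the mean of 3. KO IPs stand above control IPs with no overlap for all 10 of the highest members, while for SNORA78 and SCARNA2 the IPs of both genotypes overlap.

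The main question of the design is whether loss of PCIF1 changes what the antibody enriches. Enrichment is the log2 difference IP minus input, and its difference is KO enrichment minus control enrichment, both from a limma fit over all 16009 rows with Benjamini-Hochberg adjusted p under 0.05 as the call. Of the 91 members, 48 had higher enrichment in KO cells, where 13% of all rows were called higher, and 0 had lower enrichment, where 15.8% of all rows were called lower. The members' median difference was 1.61, against -0.06 over all rows. The lower calls of all rows were mostly of protein-coding genes. Those 12047 rows held 2403 of the 2522 lower calls and 1225 of the 2083 higher ones, so few other rows were called lower. At an unadjusted limma p under 0.05 the members' counts were 56 higher and 0 lower, where 2877 of the 16009 rows were higher and 3373 lower. With voom weights the members' counts were 52 and 0, and those of all rows were not taken. Without KO IP 3, 1 member was called lower. When each IP was set against the mean input of its genotype, the 3 KO values lay above the 3 control values for 58 members and below them for 0, where 25.3% and 27.9% of all rows did so.

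Among the 38 members with a mean log2 CPM of 3 or more, 32 were called higher, with a median of 1.60. Among the 53 with fewer reads, 16 were called, with a median of 1.62, so the medians were alike and the calls fewer where reads were few. The size class was set by the mean over all 12 libraries, the KO IPs among them, so it is not independent of the values compared within it. Of the 76 SNORA rows 41 were called higher and of the 15 SCARNA rows 7. Box C/D small nucleolar RNAs (SNORD genes), the other class of guide RNA, gave 85 higher and 0 lower calls of 121, with a median of 1.64. No test set the classes against each other.

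In KO cells, the IP enriched 23 members and depleted 26, where 28.4% of all rows were called higher and 31% lower, and the members' median was -0.41, against -0.07 over all rows. In control cells, it enriched 2 and depleted 68, where 27.7% of all rows were called higher and 28.2% lower, with a median of -2.0, against -0.01 over all rows. The members' values differed by read class. In KO cells the 38 better-covered members gave 20 higher and 12 lower (median 0.37), and the other 53 gave 3 and 14 (median -1.06). In control cells the 38 gave 2 higher and 29 lower (median -1.45), and the 53 gave 0 and 39 (median -2.55). The shares of all rows by read class were not counted. Without control IP 1, the count enriched in control cells was 1, the call of SNORA30 being lost (0.503), as it was with plain library totals (0.394). The IPs lay wholly above the inputs for 27 members and wholly below for 29 in KO cells, where 29.7% and 31.6% of all rows did so, and for 4 and 72 members in control cells, where 33% and 33.4% did. These splits depend on the scaling. With each library centred on 77 ribosomal protein mRNAs, the median of all rows moved to 0.55 for KO enrichment and 1.17 for control enrichment. The members' calls became 32 higher and 17 lower in KO cells, where 7330 of all rows were higher and 2356 lower. In control cells they became 15 higher and 32 lower, where 10178 of all rows were higher and 933 lower. The members' medians were then 0.21 and -0.82, both still below those of all rows. The difference of enrichment was still higher for 37 members and lower for 0, where 785 of all rows were higher and 6023 lower.

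Set side by side, 13 members were enriched in KO cells and depleted in control cells, namely SNORA7A, SNORA10, SNORA65, SNORA6, SNORA3B, SNORA24, SNORA56, SNORA22B, SNORA4, SNORA63B, SNORA41, SNORA40 and SNORA8. Another 24 were depleted in both, 31 had no call in KO cells and were depleted in control cells, and 8 were enriched in KO cells with no call in control cells. SNORA30 and SNORA78 were enriched in both, SNORA63D and SNORA9 were depleted in KO cells with no call in control cells, and 11 were called in neither. The shares of all rows in these joint classes were not counted, so whether the members' counts are unusual cannot be told.

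**Figure D2:**
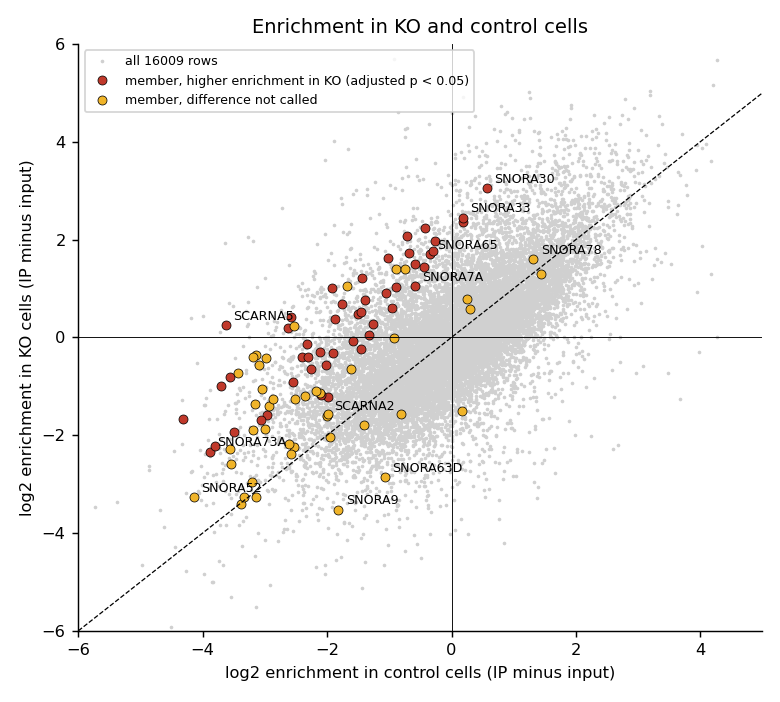
Log2 enrichment (IP minus input) in KO cells (y axis) against control cells (x axis) for all 16009 rows (grey) and the 91 members, red where the difference was called at adjusted p under 0.05 and yellow where it was not, with a dashed line of equal enrichment. Of the 91 members, 82 lie above the line, including all of the 48 in red.

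The most abundant members lay in introns of ribosomal protein genes. Others in such introns had few reads, among them SNORA3A in RPL27A, with a mean log2 CPM of -1.16. SNORA7A, in intron 1 of RPL32, gave 3137, 2607 and 2665 CPM in KO IPs and 1483, 1463 and 1137 CPM in KO inputs, against 1046, 1055 and 977 CPM in control IPs and 1589.8, 1493 and 1554 CPM in control inputs. The IPs stood above the inputs in KO cells and below them in control cells, in every library. Its enrichment was 1.05 (SE 0.11) in KO cells and -0.59 (SE 0.11) in control cells, a difference of 1.64 (SE 0.15, limma adjusted p = 2.61e-07). SNORA7A is 98.6% identical to SNORA7B, on the same chromosome in ENSG00000290993, which averaged 5.54 CPM in KO IPs and 2.73 CPM in control IPs and was not called for the difference (0.92, SE 0.49). An antisense gene, ENSG00000289809, also overlaps SNORA7A.

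SNORA65, in intron 4 of RPL12, showed the same turn with a larger size. It gave 1258, 1373 and 1479 CPM in KO IPs and 398, 464 and 400.2 CPM in KO inputs, against 383, 411 and 535 CPM in control IPs and 480.3, 518 and 692 CPM in control inputs. KO IPs lay above every other library, while the control IPs and control inputs overlapped. The difference of enrichment was 2.05 (SE 0.19, limma adjusted p = 2.47e-07), with 1.7 in KO cells and -0.34 in control cells. No annotated copy or overlapping small RNA was found for it.

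SNORA10 and SNORA64 come from the same host, RPS2, a protein of the small ribosomal subunit. SNORA10, in intron 6, gave 1617, 1740.1 and 1823 CPM in KO IPs and 1089, 1303 and 1040.5 CPM in KO inputs, against 598, 618 and 751 CPM in control IPs and 1129, 1190.5 and 1508 CPM in control inputs. SNORA64, in intron 4, averaged 323 ± 39.4 CPM in KO IPs and 401 ± 36.6 CPM in KO inputs, against 113 ± 8.73 CPM in control IPs and 424 ± 54.2 CPM in control inputs (SD, n = 3 each). SNORA10 was thus enriched in KO cells (0.60, SE 0.12) and SNORA64 depleted (-0.32, SE 0.11), yet the difference of enrichment was close, 1.56 (SE 0.17) and 1.59 (SE 0.16).

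SNORA70 from intron 5 of RPL10 was depleted in both genotypes. It gave 373, 415 and 394 CPM in KO IPs and 1038, 1292 and 1230.5 CPM in KO inputs, against 136, 151 and 162 CPM in control IPs and 1051, 1094 and 1407 CPM in control inputs. The IPs of the genotypes did not overlap and the inputs did. Enrichment was -1.59 (SE 0.11) in KO cells and -2.97 (SE 0.11) in control cells, and the difference 1.39 (SE 0.16, limma adjusted p = 2.84e-06). Its closest annotated copy is SNORA70I, at 94.1% identity. A second gene named SNORA70, on chromosome 12, had few reads, with a mean log2 CPM of -0.31, and was not called (-0.14).

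SNORA21, in intron 2 of RPL23, gave 1379, 1319 and 1302 CPM in KO IPs and 1169.9, 1410.0 and 1289.6 CPM in KO inputs, against 555, 659 and 605 CPM in control IPs and 1444, 1624 and 1479 CPM in control inputs. In KO cells its IPs and inputs overlapped, and the enrichment of 0.05 (SE 0.09) was not called, while in control cells it was depleted by -1.32 (SE 0.09). The remaining members of that abundance, SNORA6 in RPSA and SNORA3B in RPL27A, differed by 1.98 (SE 0.15) and 1.91 (SE 0.16). SNORA33, in intron 5 of RPS12, gave 205, 201 and 241 CPM in KO IPs and 32.2, 45 and 42.0 CPM in KO inputs, against 52.2, 65.1 and 69.6 CPM in control IPs and 41.5, 58.3 and 67.5 CPM in control inputs. Its KO enrichment of 2.45 (SE 0.16) was the second highest among the 38 better-covered members.

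Over the 15 members in ribosomal protein hosts, 10 were called higher for the difference of enrichment and 0 lower, with a median of 1.64. In the 49 members of other protein-coding hosts the counts were 32 and 0, with a median of 1.90. In the 26 members of non-coding hosts they were 5 and 0, with a median of 0.94. The non-coding hosts hold most of the members close to a gene start described below and several with few reads, and the part of either in these counts was not tested.

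Other protein-coding hosts held further abundant members. SNORA31, in intron 5 of TPT1, gave 527, 603 and 716 CPM in KO IPs and 113, 119 and 126 CPM in KO inputs, against 154, 223 and 227 CPM in control IPs and 135, 177 and 224 CPM in control inputs. Its KO enrichment was 2.35 (SE 0.16), its control enrichment 0.18 (SE 0.16, not called), and the difference 2.17 (SE 0.23, limma adjusted p = 1.14e-06). SNORA67, in intron 9 of EIF4A1, an RNA helicase of translation initiation, was depleted in both genotypes and differed by 1.61 (SE 0.18). SNORA41, in intron 4 of the elongation factor gene EEF1B2, gave 45.7, 44.4 and 33.8 CPM in KO IPs and 11.6, 15.0 and 10.8 CPM in KO inputs, against 12.2, 9.0 and 10.2 CPM in control IPs and 16.2, 14.3 and 20.2 CPM in control inputs. It differed by 2.42 (SE 0.28).

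EIF4A2, a paralogue of EIF4A1, hosts SNORA63, SNORA4, SNORA63B and SNORA81. SNORA63B, in intron 6, gave 25.6, 26.4 and 28.1 CPM in KO IPs and 11.6, 11.2 and 11.8 CPM in KO inputs, against 8.69, 11.4 and 13.3 CPM in control IPs and 25.3, 26.7 and 38.6 CPM in control inputs. Neither the IPs nor the inputs of the genotypes overlapped, and they moved in opposite directions. The difference of enrichment was 2.65 (SE 0.27), of which the IPs gave 1.29 and the inputs -1.37. SNORA4 differed by 2.16 (SE 0.32) and SNORA63 by 1.46 (SE 0.23), while SNORA81, with means of 0.328 to 1.85 CPM over the groups, was not called (1.62, SE 1.48) and overlaps MIR1248.

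SNORA30 had the highest KO enrichment of the 38 better-covered members. It lies in intron 8 of SRCAP, a chromatin remodelling ATPase, and gave 51.1, 44.9 and 39.6 CPM in KO IPs and 5.53, 6.30 and 4.62 CPM in KO inputs, against 15.9, 14.0 and 13.8 CPM in control IPs and 10.3, 9.70 and 9.42 CPM in control inputs. No 2 of these groups overlapped. Enrichment was 3.05 (SE 0.19) in KO cells and 0.57 (SE 0.19) in control cells, and the difference 2.48 (SE 0.26, limma adjusted p = 1.34e-06).

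SNORA25 had the largest difference among the better-covered members, 2.67 (SE 0.35, limma adjusted p = 1.25e-05). It lies downstream of the canonical transcript of TAF1D, a factor of RNA polymerase I, and gave 28.0, 28.8 and 39.6 CPM in KO IPs and 5.53, 9.82 and 5.60 CPM in KO inputs, against 7.30, 10.8 and 11.8 CPM in control IPs and 12.2, 12.9 and 14.4 CPM in control inputs. Again KO IPs were the highest libraries and KO inputs lay below control inputs. The other members of TAF1D had differences of 2.64 (SNORA40), 2.24 (SNORA18), 1.95 (SNORA8) and 2.52 (SNORA32), and SNORA32, with few reads, was the one not called.

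SNORA56 lies in intron 12 of DKC1, the gene of dyskerin, which is the pseudouridine synthase of the H/ACA particle. It gave 99.6, 87.2 and 96.8 CPM in KO IPs and 31.1, 40.7 and 29.6 CPM in KO inputs, against 22.2, 28.4 and 26.2 CPM in control IPs and 32.9, 39.3 and 43.6 CPM in control inputs. It differed by 2.08 (SE 0.21), while the start of DKC1 was enriched in both genotypes (1.91 in KO and 1.59 in control cells) and was not called for the difference (0.32). SNORA24, in intron 1 of SNHG8 and known to guide pseudouridylation in the small ribosomal subunit RNA, averaged 117 ± 7.17 CPM in KO IPs and 97.3 ± 2.03 CPM in KO inputs, against 46.0 ± 5.36 CPM in control IPs and 110.5 ± 14.6 CPM in control inputs (SD, n = 3 each). It differed by 1.53 (SE 0.16).

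SNORA73A and SNORA73B, in introns 1 and 2 of RCC1 and also within SNHG3 on the same strand, were among the most depleted members. SNORA73A gave 15.8, 17.1 and 26.4 CPM in KO IPs and 88.4, 106 and 98.5 CPM in KO inputs, against 7.06, 6.64 and 4.14 CPM in control IPs and 101, 85.8 and 71.6 CPM in control inputs. SNORA73B gave 35.4, 26.4 and 31.0 CPM in KO IPs and 97.6, 106 and 91.7 CPM in KO inputs, against 12.4, 17.1 and 11.2 CPM in control IPs and 120.2, 101 and 114 CPM in control inputs. For both, the IPs of the genotypes did not overlap and the inputs did. Enrichment of SNORA73A was -2.34 (SE 0.21) in KO cells and -3.88 (SE 0.21) in control cells, and the differences were 1.54 (SE 0.29) and 1.38 (SE 0.21) for SNORA73A and SNORA73B, both called. SNORA74A, in MATR3 and also within SNHG4, was depleted to a similar degree and differed by 1.56 (SE 0.36).

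SNORA71C, in intron 3 of SNHG17, was the better-covered member with the smallest difference, 0.25 (SE 0.35, limma adjusted p = 0.645). It gave 6.94, 4.46 and 4.08 CPM in KO IPs and 47.4, 33.9 and 36.8 CPM in KO inputs, against 3.10, 3.75 and 2.87 CPM in control IPs and 40.1, 28.5 and 22.8 CPM in control inputs. It was strongly depleted in both genotypes, and its IPs held few reads. SNORA71C is 86.6% identical to SNORA71D, 84.3% to SNORA71A and 75.4% to SNORA71. The other SNORA71 records in that host had differences of 2.74 (SNORA71B, called), 0.97 (SNORA71A), -0.02 (SNORA71D) and -0.74 (SNORA71).

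SCARNA2, SCARNA11, SCARNA17, SCARNA22 and SCARNA12 had a mean log2 CPM of 3 or more, and the other 10 rows had fewer reads. SCARNA11, in intron 31 of the chromatin remodeller gene CHD4, gave 96.2, 65.3 and 76.2 CPM in KO IPs and 24.2, 22.5 and 22.5 CPM in KO inputs, against 26.2, 21.9 and 33.1 CPM in control IPs and 23.5, 32.6 and 46.2 CPM in control inputs. KO IPs stood above all other libraries, and control IPs overlapped control inputs. The difference was 2.06 (SE 0.29, limma adjusted p = 2.39e-05).

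SCARNA22, in intron 18 of NSD2, a histone methyltransferase gene, gave 63.8, 68.7 and 51.6 CPM in KO IPs and 14.7, 15.0 and 17.0 CPM in KO inputs, against 19.4, 13.5 and 16.3 CPM in control IPs and 17.0, 17.7 and 24.3 CPM in control inputs. As with SCARNA11, the KO IPs alone stood apart, and the difference was 2.23 (SE 0.25). SCARNA12, in intron 6 of PHB2, averaged 16.9 ± 1.56 CPM in KO IPs and 22.4 ± 1.75 CPM in KO inputs, against 4.73 ± 1.03 CPM in control IPs and 23.2 ± 3.08 CPM in control inputs (SD, n = 3 each), and differed by 1.90 (SE 0.27). Among those with fewer reads SCARNA8 (2.79, SE 0.55), SCARNA7 (1.65, SE 0.50), SCARNA5 (3.88, SE 1.0) and 1 record of SCARNA4 (2.44, SE 0.89) were called. SCARNA5 had the largest difference of all members, and it rests on 1, 0 and 1 reads in the control IPs, so that its size depends on the small count added before the logarithm. SCARNA13, SCARNA16, SCARNA21, SCARNA9, SCARNA6 and the other SCARNA4 record were not called, with differences from -1.67 to 2.73.

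SNORA11F, the member with no annotated host, gave 4.0, 3.48 and 8.66 CPM in KO IPs and 1.80, 3.05 and 2.67 CPM in KO inputs, against 0.541, 0.600 and 1.09 CPM in control IPs and 3.84, 3.28 and 1.53 CPM in control inputs. Its IPs did not overlap between genotypes, on few reads, and the difference was 2.94 (SE 0.73, limma adjusted p = 0.00481).

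SCARNA2, the member known for its own promoter, behaved otherwise. It gave 33.9, 34.2 and 23.0 CPM in KO IPs and 94.5, 96.7 and 81.0 CPM in KO inputs, against 26.2, 30.3 and 23.2 CPM in control IPs and 106, 117 and 94.9 CPM in control inputs. The IPs of the genotypes overlapped, and so did the inputs. It was depleted in both, by -1.60 (SE 0.15) in KO cells and -2.0 (SE 0.15) in control cells, and the difference of 0.40 (SE 0.21, limma adjusted p = 0.171) was not called.

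SNORA78, which starts 289 bases downstream of the start of SNHG9, was enriched in both genotypes. It gave 42.3, 42.0 and 53.9 CPM in KO IPs and 12.7, 16.3 and 16.6 CPM in KO inputs, against 47.4, 49.4 and 43.7 CPM in control IPs and 21.8, 15.2 and 19.9 CPM in control inputs. The IPs of the genotypes overlapped, with enrichments of 1.60 (SE 0.16) in KO cells and 1.32 (SE 0.16) in control cells and a difference of 0.28 (SE 0.23, limma adjusted p = 0.397). SCARNA17, which starts 168 bases from the start of SNHG22, gave 31.0, 38.5 and 43.0 CPM in KO IPs and 21.6, 22.3 and 20.5 CPM in KO inputs, against 28.7, 26.1 and 27.5 CPM in control IPs and 25.3, 24.6 and 19.9 CPM in control inputs. Its difference was 0.55 (SE 0.21, limma adjusted p = 0.0594), and an antisense gene, ENSG00000266997, overlaps it.

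The 7 members whose annotated start lies within 300 bases of the start of a long gene on their strand were SCARNA2, SNORA57, SNORA63D, SCARNA17, the SNORA70 gene of chromosome 12, SNORA7B and SNORA78. Of these, 1 was called for the difference, SNORA57 at 0.76 (SE 0.22), and their median was 0.40. That call was lost without control input 3 (0.644) and with ribosomal protein centring (0.193). Of the other 84 members 47 were called, with a median of 1.73. These distances are to starts of whole genes only. Counting every annotated transcript of another gene, 43 of the 91 members lay within 200 bases of a start. Among the 84, SNORA41 at 0 bases (2.42) and SCARNA22 at 3 bases (2.23) were called, and SNORA71C at 2 bases (0.25) was not. The distance was chosen after the values were seen, so no test is given, and 3 of the 7 had a mean log2 CPM under 3.

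**Figure D3:**
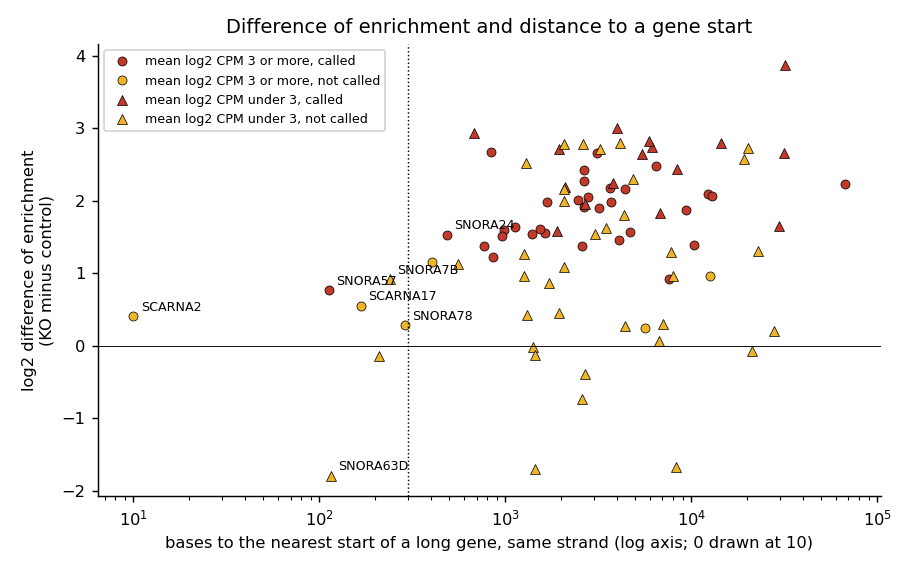
Log2 difference of enrichment, KO minus control (y axis), against the distance in bases from a member's start to the nearest start of a long gene on the same strand (x axis, log scale), with red for called and yellow for not called, circles for a mean log2 CPM of 3 or more and triangles for less. The 7 members left of the dotted line at 300 bases lie between -1.79 and 0.92, and most of the others lie above 1.

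The start of the host gene gives a second reading from the same locus. For 82 members the host was in the table, through 56 hosts, and the member's difference of enrichment was above its host's in 67 of them. Among the 35 better-covered members with a measured host it was above in 34, the exception being SCARNA2, whose host row holds the same reads. The median host difference over the 56 hosts was 0.34, with 17 called higher and 8 lower, where 13% of all rows were called higher and 15.8% lower, and the member stood above its host by a median of 0.98 among the 35. Several members share a host, so these pairs are not independent.

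Host and member did not always move together. SNORA20 in intron 9 of TCP1, a chaperonin subunit gene, was higher in enrichment in KO cells (1.88, SE 0.33), while the start of TCP1 was lower (-0.83, SE 0.14, limma adjusted p = 0.000125). SCARNA11 was higher (2.06) and the start of its host CHD4 lower (-0.47). SNORA22B, which is 92.8% identical to SNORA22, was higher (1.98) and the start of its host CCT6A, another chaperonin subunit gene, lower (-0.41). In ribosomal protein hosts the difference was called higher for 7 of 11 and lower for 0, with RPL12 at 1.40, RPS2 at 1.12 and RPL27A at 1.54, while RPL32 (0.07) and RPL23 (0.36) were not called and their members SNORA7A and SNORA21 were. The start of SRCAP was higher by 1.11, less than the 2.48 of SNORA30.

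**Figure D4:**
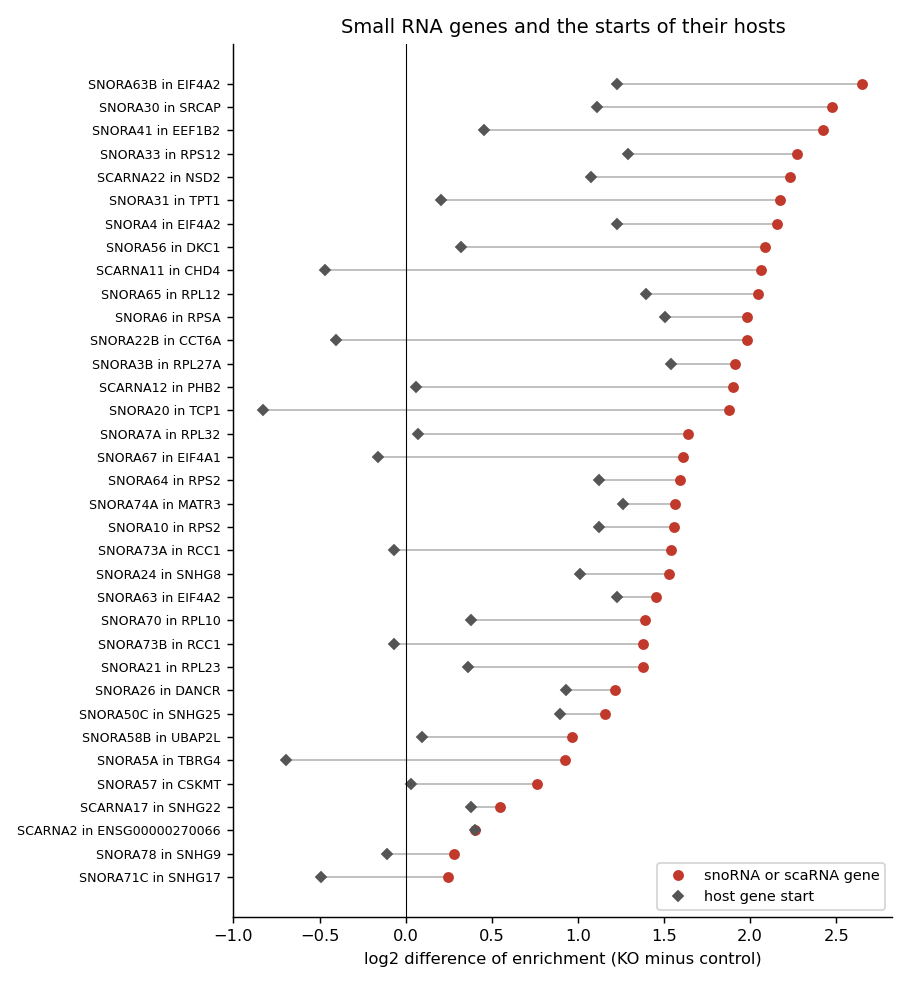
Log2 difference of enrichment, KO minus control (x axis), for the 35 members with a mean log2 CPM of 3 or more and a host in the table (red circles) and for the start of the host gene (grey diamonds), 1 pair per line. The member lies to the right of its host in 34 pairs, and the pair of SCARNA2 coincides.

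Direct comparisons of the same fraction show which side carried the change. Between the IPs, 58 members were higher in KO than in control and 0 lower, where 23% of all rows were called higher and 26% lower, and the median was 1.37, against -0.04 over all rows. At an unadjusted limma p under 0.05 the members' counts were 63 and 1, the 1 being SNORA63D, where 4107 of all 16009 rows were higher and 4664 lower. With voom the members' counts were 55 and 0, and those of all rows were not taken. Leaving out any 1 of the KO IPs gave 1 member lower. The libraries did not overlap, with KO above control, for 54 members and with KO below for 0, where 26% and 28.6% of all rows did so. The largest values among the better-covered members were 1.98 (SE 0.20) for SNORA41, 1.91 (SE 0.18) for SCARNA22, 1.89 (SE 0.15) for SNORA56, 1.86 (SE 0.19) for SCARNA12 and 1.80 (SE 0.16) for SNORA33. The smallest were -0.03 (SE 0.16) for SNORA78 and 0.18 (SE 0.15) for SCARNA2, neither called, then 0.44 (SE 0.15) for SCARNA17, 0.56 (SE 0.16) for SNORA57 and 0.64 (SE 0.25) for SNORA71C, all 3 called. These 3 calls are weak. That of SNORA71C was lost with voom weights, without a trend, with log2(CPM + 1), with only the 2 groups compared and without KO IP 1 (0.406), among other libraries left out. That of SCARNA17 was lost without KO IP 3 (0.335), KO IP 2 (0.414) or control IP 2 (0.404). With ribosomal protein centring none of the 3 was called, at 0.116 for SNORA71C, 0.038 for SNORA57 and -0.084 for SCARNA17.

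Between the inputs, 8 members were lower in KO than in control and 0 higher, where 5.67% of all rows were called lower and 5.56% higher, and the median was -0.24, against -0.02 over all rows. At an unadjusted limma p under 0.05 the members' counts were 19 lower and 0 higher, where 1920 of all 16009 rows were lower and 1876 higher. With voom the members' counts were 16 and 0, and those of all rows were not taken. KO inputs lay wholly below control inputs for 26 members and wholly above for 2, where 16% and 15.7% of all rows did so. The 8 were SNORA63B (-1.37, SE 0.19), SNORA25 (-0.96, SE 0.25), SNORA4 (-0.86, SE 0.22), SNORA30 (-0.85, SE 0.19), SNORA51 (-0.69, SE 0.19), SNORA31 (-0.55, SE 0.16), SNORA63 (-0.52, SE 0.16) and SNORA6 (-0.36, SE 0.11). The host EIF4A2 of SNORA63B, SNORA4 and SNORA63 was itself lower in KO inputs (-0.48, limma adjusted p = 0.0169). The count is not stable, being 2 without control input 3, 2 without KO input 1, 4 without control input 2 and 4 without KO input 3. The calls of SNORA25, SNORA4 and SNORA51 were each lost without control input 3 and without KO input 1. Control input 3 also held the highest share of members' reads of the inputs, 1.10% against 0.925% and 0.978% in the other control inputs.

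**Figure D5:**
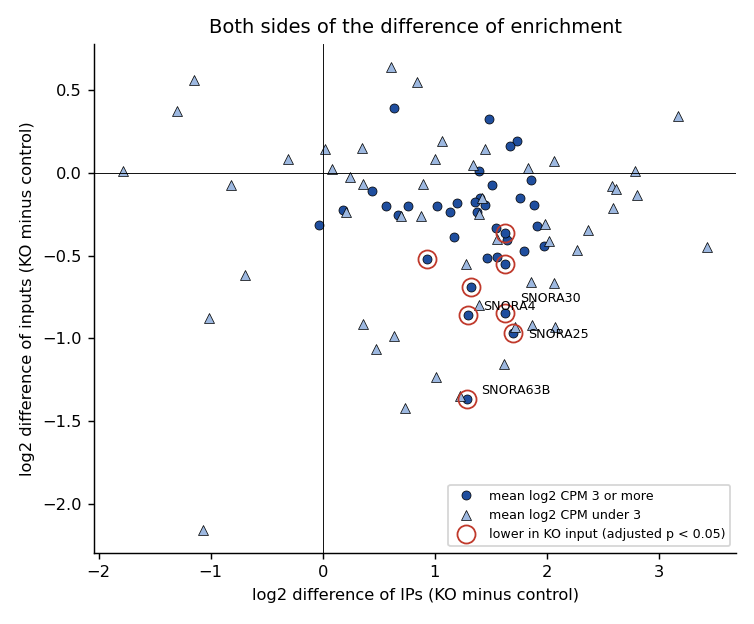
Log2 difference between KO and control inputs (y axis) against that between KO and control IPs (x axis) for the 91 members, dark circles for a mean log2 CPM of 3 or more and light triangles for less, with rings on the 8 called lower in KO input. Most members lie to the right of 0, and the ringed ones lie both right of and below 0.

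Some features that did not enter the choice of members were set beside the difference of enrichment. The first base of the annotated start was A in 20 members, of which 7 were called, with a median of 1.55. It was C in 22 with 15 called (median 1.89), G in 26 with 15 called (median 1.87) and T in 23 with 11 called (median 1.56). Members with a GGAC had 22 of 39 called and a median of 1.58, and those without it 26 of 52 and a median of 1.73. The GC content of the gene and the difference of enrichment had a Pearson r of -0.64 and a Spearman rho of -0.52 over the 38 better-covered members, and -0.34 and -0.41 over all 91. The points share libraries and hosts, and of the better-covered members highest in GC, SNORA78 at 72.4%, SCARNA2 at 65.5%, SNORA57 at 63.8% and SCARNA17 at 61.1% lie near a long gene's start, while SNORA50C at 66.9% lies 402 bases from one.

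Of the 12 genes of the H/ACA particle and its assembly, 1 was higher for the difference of enrichment, 3 were lower and 8 were not called, with a median of -0.35, where 13% of all rows were called higher and 15.8% lower. The lower ones were NOLC1 (-1.27), a nucleolar and Cajal body phosphoprotein that binds the particle, RUVBL2 (-0.71), an ATPase of its assembly, and the core protein NOP10 (-0.65), while RPAP3 (1.67), a cochaperone, was the higher one. The core genes DKC1 (0.32), NHP2 (-0.17) and GAR1 (-0.55) and the scaRNA-binding WRAP53 (-0.11) were not called. In the inputs 0 of the 12 were higher and 1, GAR1, lower (-0.57), with 0 and 1 at an unadjusted limma p under 0.05. Of all 16009 rows, 890 were called higher there and 908 lower, and 1876 and 1920 at the unadjusted p.

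Of 12 genes of the Cajal body and of small RNA cap trimethylation, 9 were tested, with 1 higher and 2 lower for the difference, beside the same 13% and 15.8% of all rows. LARP7, a binder of small nuclear RNA, was higher (0.98), and COIL, the gene of the Cajal body protein coilin (-1.27), and GEMIN5 (-0.77) were lower. Of 15 genes of small RNA processing and decay, also to be read against those shares, 2 were higher, the exonuclease gene XRN2 (0.54) and the poly(A) polymerase gene TENT4B (0.89), and 1 was lower, DBR1 (-1.56), which opens intron lariats. No gene of either list was called between the inputs in either direction by limma. At an unadjusted limma p under 0.05 there were 0 of 9 and 1 of 15, beside 1876 higher and 1920 lower of all 16009 rows.

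Among the genes outside the small RNA classes whose profile over the 12 libraries was most like the members' median profile were CCAR2 (Pearson r 0.98), LTB4R (0.98) and RPS27A (0.97). None of the 3 hosts a member, and their differences of enrichment were 1.29 for CCAR2, 1.38 for LTB4R and 1.77 for RPS27A.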

How the data were processed

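The deposited table holds log2 CPM values of gene start regions in 12 libraries, which the authors made from read counts with a small count added, per the file's values and the submitters' processing notes. Those notes name hg38, featureCounts, R 3.3.3, deepTools 3.0.2, SAMtools 1.7 and the aligner HISAT2 2.0.4. What window, annotation and strand setting the counting used is not stated, so levels of different genes are not compared per length. With an added count of 0.132 to 0.330 reads, larger in larger libraries, 100% of the values gave whole numbers of reads, with a tolerance of 0.01. The linear values do not sum to the same total in every library, so the authors' values carry a scaling beyond plain totals. Identifiers were matched to GENCODE 44, for 15903 of 16009 rows.

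The 4 group means were fitted to all rows with limma 3.58.1 in R 4.3.3, with a mean-variance trend, no replicate block and no filter, with p-values adjusted by Benjamini-Hochberg over all rows. A count model was not used, since the values are logarithms. Fold changes are on the log2 scale with the added count, which understates those of low rows. CPM values are those log2 values taken back to a linear scale. The fit was tested on simulated data. Other scalings, pseudocounts, filters, weights, a replicate block and leaving out each library were tried.

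Genes are named by a rule. Among members with a mean log2 CPM of at least 3 these are the 5 largest differences in each direction in each of 5 contrasts and the 10 highest means. Every SCARNA row, the member without a host, hosts of named members, the listed pathway genes and the 5 most alike profiles also fall under it, of which some are not reported here. SNORA71, SNORA81, TAF1D, SNORA7B and SNORA63D records with few reads were added after their values were seen. The members and lists were chosen with earlier results of these data known.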

Additional observations from a re-analysis of the deposited data

Results flagged for a closer look

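A test of the difference between genotypes in IP enrichment passed for the 48 members called in the report, all with higher enrichment in KO cells, and their values are given here as the log2 difference (KO minus control). Those of 2.5 or more were SCARNA5 (3.88), SNORA29 (3.01), SNORA11F (2.94), SNORA5B (2.83), SCARNA8 (2.79), SNORA71B (2.74), the SNORA17B record ENSG00000280496 (2.71), SNORA25 (2.67), SNORA23 (2.66), SNORA63B (2.65) and SNORA40 (2.64). Next came SNORA30 (2.48), the SCARNA4 record ENSG00000280466 (2.44), SNORA41 (2.42), SNORA33 (2.27), SNORA18 (2.24), SCARNA22 (2.23), SNORA21B (2.19), SNORA31 (2.17), SNORA4 (2.16), SNORA56 (2.08), SCARNA11 (2.06), SNORA65 (2.05) and SNORA51 (2.01). Between these and 1.6 lay SNORA6 (1.98), SNORA22B (1.98), SNORA8 (1.95), SNORA3B (1.91), SCARNA12 (1.9), SNORA20 (1.88), SNORA11 (1.83), SCARNA7 (1.65), SNORA7A (1.64) and SNORA67 (1.61). The rest were SNORA64 (1.59), SNORA48 (1.58), SNORA74A (1.56), SNORA10 (1.56), SNORA73A (1.54), SNORA24 (1.53), SNORA13 (1.51), SNORA63 (1.46), SNORA70 of RPL10 (1.39), SNORA73B (1.38), SNORA21 (1.38), SNORA26 (1.22), SNORA5A (0.92) and SNORA57 (0.76). The other SNORA17B record, ENSG00000276161, which begins 5 bases away, had 0.44 and was not called. With 3 libraries in each group, no group was large enough for a search for single outlying libraries.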

How the results depend on the processing

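Over the alternatives run, the members called higher for the difference of enrichment numbered 37 to 52 of 91, apart from subsets of members. With ribosomal protein mRNA centring, enrichment in control cells was called higher for 15 and lower for 32, enrichment in KO cells lower for 17, KO input against control input lower for 5 and KO IP against control IP lower for 2. Of all 16009 rows, 10178 were then higher and 933 lower in control cells, and 2356 lower in KO cells. Between inputs 638 of all rows were lower, and between IPs 7544. The members' medians were then 1.041 for the difference, 0.211 for KO enrichment, which changed sign, -0.817 for control enrichment and 0.85 between IPs. The same centring changed the sign of the difference for SCARNA17 (-0.018), SCARNA2 (-0.165), SNORA71C (-0.321) and SNORA78 (-0.288), and between IPs of SCARNA17 (-0.084) and SCARNA2 (-0.345). Plain library totals gave 1 member higher in control enrichment and 0 for SNORA78 between IPs. The 10892 rows with log2 CPM of 3 or more in at least 3 libraries held 45 members, with 35 lower in control and 15 lower in KO enrichment and medians of -1.455 and 0.269, the second of opposite sign. A row could meet that filter through the 3 KO IPs alone, so the filter is not independent of KO enrichment. With log2(CPM + 1) the medians were 1.165 (difference), -1.243 (control enrichment) and 0.895 (IPs). Members lower in KO input numbered 3 without a trend, 16 with voom and 13 with only the 2 groups compared. The 45 members without antisense overlap, small RNA overlap or near-identical copy, a subset chosen after the data were seen, gave 25 higher for the difference (median 2.085), 13 higher and 12 lower in KO enrichment, 1 higher and 33 lower in control enrichment and 31 higher between IPs. Leaving out 1 library at a time gave 40 to 50 higher and 0 to 1 lower for the difference, 20 to 22 higher and 22 to 29 lower in KO enrichment, 1 to 2 higher and 58 to 71 lower in control enrichment, 2 to 10 lower between inputs, and 50 to 60 higher and 0 to 1 lower between IPs. It also turned the sign of uncalled values, which ranged from -0.005 to 0.364 for SNORA31 and from -0.019 to 0.332 for SNORA33 in control enrichment, from -0.07 to 0.14 for SNORA70 between inputs and from -0.152 to 0.029 for SNORA78 between IPs. Column numbers are not stated to pair libraries, and deviations of same-numbered libraries correlated from -0.08 to 0.24 over 9646 rows, with the own number highest in 15 of 18 comparisons, a hint from the data and not the design. With the number as a replicate block, 50 were higher for the difference, 11 lower between inputs, and 60 higher and 1 lower between IPs. The cause of these shifts was not tested. Keeping every row, listed among the alternatives, was already the setting of the report. Depth limits the 53 members under a mean log2 CPM of 3, and the KO IPs had the fewest reads.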
